A study of Mus musculus with 4 samples.

Results

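Immunoglobulin variable (V) segments are the 348 genes of the deposited matrices whose symbols begin with Ighv, Igkv or Iglv, of 32285 genes in all. They comprised 185 heavy chain segments (Ighv), 160 kappa light chain segments (Igkv) and 3 lambda light chain segments (Iglv). The GENCODE M21 annotation marks 216 of them as V genes, 130 as V pseudogenes and 2 as IG_LV genes. Their use was read in B cells, defined as cells with at least 3 UMIs (unique molecular identifiers, each standing for 1 captured RNA molecule) summed over Cd79a, Cd79b and Ms4a1 and no UMI of Cd3e. Cd79a and Cd79b encode the signalling partners of the membrane antibody, Ms4a1 encodes CD20, and Cd3e marks T cells. The rule gave 1968 B cells in the lung library of metastasis mice, 4492 in that of sham mice, 1693 in metastasis blood and 7973 in sham blood. Values below keep this order (lung metastasis, lung sham, then the same for blood) unless libraries are named.

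Each developing B cell joins 1 V segment to a D and a J segment in the heavy chain locus, and 1 V segment to a J segment in the kappa or lambda locus. The joined gene carries the V segment into the messenger RNA, upstream of the constant segment, so the V segment in a cell's RNA marks the antibody that the cell makes. Allelic exclusion leaves most mature B cells with a single productive heavy chain and a single light chain, usually kappa in mice.

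The mice were C57/Bl6 females aged 6 to 8 weeks, and lungs and blood each gave a library per arm, 4 in all. Metastasis mice received 800000 cells of B16F10, a melanoma line of the same strain background, into the spleen on day 0. Sham mice received saline, and in both arms the spleen, a main reservoir of B cells, was removed at once. In both arms 250000 B16F10 cells were also placed under the skin, and tissues were taken on day 7. The labels describe the first arm as bearing liver metastases. Lung cells were filtered and cleared of dead cells on columns, and CD45-positive blood cells were obtained by density centrifugation, so tissue and cell preparation cannot be told apart in any comparison of lung with blood. Each tissue and arm had 1 library, of a number of mice that the labels do not state. No difference therefore has a replicate check, no p-value was computed, and all 95% intervals cover counting error only.

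V segments are short and many are close copies of each other, so the last 60 bases of 12 of them are shown first. The capitals mark the codon of the conserved cysteine near the 3′ end of a V segment, found as Tyr-(Tyr, Phe, His or Ile)-Cys in the 3′ part. The bases after it begin the third complementarity determining region, the part of the antibody that the joint shapes. The sequences are from the GENCODE M21 transcripts of the GRCm38 build, 5′ to 3′ on the gene's own strand. The lambda segments are shown because they made up a large share of light V UMIs for only 3 genes. They lie on the minus strand at chr16:19085017-19085076 (Iglv1), chr16:19260401-19260460 (Iglv2) and chr16:19241207-19241266 (Iglv3).
Iglv1: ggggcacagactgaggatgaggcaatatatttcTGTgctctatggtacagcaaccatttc
Iglv2: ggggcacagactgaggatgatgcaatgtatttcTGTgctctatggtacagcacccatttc
Iglv3: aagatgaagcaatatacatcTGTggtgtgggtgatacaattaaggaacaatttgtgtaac

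Iglv1 and Iglv2 had 57 of these 60 bases in common and were 96.7% identical over the transcript, while Iglv1 and Iglv3 were 63.3% identical. The kappa segments shown are the most used ones (Igkv1-110, Igkv1-117, Igkv1-135), the light segment of a known B-1 receptor (Igkv14-126) and the segment that differed between sham lung and sham blood at the 2-UMI minimum (Igkv6-20). The first 4 lie on the plus strand at chr6:68271208-68271267, chr6:68121768-68121827, chr6:67610449-67610508 and chr6:67896583-67896642. Igkv6-20 lies on the minus strand at chr6:70335841-70335900.
Igkv1-110: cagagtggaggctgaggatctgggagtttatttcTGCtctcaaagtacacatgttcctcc
Igkv1-117: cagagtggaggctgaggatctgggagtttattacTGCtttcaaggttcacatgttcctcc
Igkv1-135: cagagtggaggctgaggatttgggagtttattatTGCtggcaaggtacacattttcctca
Igkv14-126: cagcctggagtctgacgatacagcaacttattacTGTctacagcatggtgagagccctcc
Igkv6-20: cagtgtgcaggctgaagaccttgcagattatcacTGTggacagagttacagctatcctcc

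Igkv1-110 and Igkv1-117 were 97.5% identical and shared 56 of the 60 bases. The heavy segments shown are those that the comparisons below turn on. All lie on the minus strand, at chr12:114788372-114788431 (Ighv1-26), chr12:115757984-115758043 (Ighv1-72), chr12:114048241-114048300 (Ighv11-2) and chr12:113611187-113611246 (Ighv2-3).
Ighv1-26: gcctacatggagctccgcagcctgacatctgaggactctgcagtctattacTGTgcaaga
Ighv1-72: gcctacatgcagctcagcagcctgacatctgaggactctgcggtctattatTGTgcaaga
Ighv11-2: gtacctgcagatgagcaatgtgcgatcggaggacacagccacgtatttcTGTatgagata
Ighv2-3: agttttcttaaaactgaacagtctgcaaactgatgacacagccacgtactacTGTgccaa

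The cysteine motif was found in 109 of 113 Ighv V genes, 99 of 100 Igkv V genes and 3 of 3 Iglv genes, and in 38 of 70 Ighv and 35 of 60 Igkv pseudogenes. Ighv1-72 had a close copy, Ighv1-64, that shared 58 of the last 60 bases and 95.2% of the transcript. Of the 100-base windows of Ighv1-72, 57.2% occurred in no other V transcript, against 44.2% for Igkv6-20, 83.8% for Igkv1-110 and 83.9% for Igkv1-117. Reads from such genes may have been left uncounted or given to a copy, and their values are uncertain to that extent.

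V segments were sparse in these data. The B cells of the 4 libraries held 11138 V UMIs in all: 3159 of Ighv, 6731 of Igkv and 1248 of Iglv. The libraries contributed 791, 2303, 1062 and 6982 of them. For each V UMI the B cells held between 81.0 and 84.6 UMIs of the antibody constant segments. At least 1 UMI was found for 246 of the 348 members and for 203 of the 216 V genes. Pseudogenes gave 194 UMIs from 43 of 130 members.

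A heavy V UMI was present in 9.96%, 12.4%, 16.6% and 20.7% of B cells, and a light V UMI in 22.5%, 26.3%, 30.9% and 40.0%. Median depth per B cell increased along the same order, at 1834, 2413, 2494 and 3573 UMIs. When every B cell was thinned to 2000 UMIs, the shares with a heavy V UMI were 7.93%, 9.05%, 11.3% and 10.6%, and those with a light V UMI 19.5%, 19.3%, 24.0% and 23.9%. That step left out 1173, 1177, 391 and 195 shallower cells. T cells (Cd3e at 2 or more UMIs, no UMI of the B cell genes) served as background. A heavy V UMI was seen in 0 of 410, 2 of 1569, 0 of 182 and 1 of 1075 of them, and the counts for light V were the same, at median depths of 3218, 4208, 4438 and 5932 UMIs. The largest of these shares, 0.127% (interval 0.0154% to 0.460%), was in lung sham, and the 0 counts allow up to 0.732% in lung metastasis and 1.65% in blood metastasis.

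The whole libraries held 112079231 to 132540945 UMIs in 18115 to 36125 barcodes, of which 8483 to 13443 cells were kept. All 10 listed B cell markers were detected in the B cells of each library, at a summed level of 16984.6 to 18995.7 CPM (UMIs per 1000000 UMIs of the summed B cells). Markers of other cells were lower except for those of red cells. The 7 T cell markers summed to 5.14 to 29.5 CPM with Cd3e at 0 by the rule, the 5 neutrophil markers to 29.3 to 346.4 CPM, the 5 monocyte or macrophage markers to 69.2, 160.8, 75.5 and 250.3 CPM, and the 6 red cell markers to 80631.6 to 227541.5 CPM. The median B cell had 0.140% to 0.801% haemoglobin UMIs, so few cells held most of them. The part of these other cells in the results below was not tested. Library pairs shared 2 to 11 B cell barcodes.

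Light chain use was led by a few segments in each library. The top segment of a cell was the V segment of a chain with more UMIs than any other of that chain, and a cell was assigned when it had such a segment. With a minimum of 1 UMI, 406, 1053, 463 and 2735 cells were assigned a light segment. Iglv1 led on average, with 29 of 406 cells (7.14%, 4.84% to 10.1%) in lung metastasis, 76 of 1053 (7.22%, 5.73% to 8.95%) in lung sham, 49 of 463 (10.6%, 7.93% to 13.8%) in blood metastasis and 248 of 2735 (9.07%, 8.02% to 10.2%) in blood sham. The blood shares lay above the lung shares, but the intervals overlapped. Igkv1-110 took 8.37%, 9.12%, 8.21% and 8.19%. Igkv1-117 took 8.62%, 8.45%, 8.42% and 8.26%. These near copies differed little among libraries, with the highest share at most 1.11 times the lowest for Igkv1-110 and 1.04 times for Igkv1-117. Igkv1-135 followed with 7.14%, 5.98%, 3.67% and 5.05%, and Iglv3 with 4.93%, 5.03%, 5.62% and 5.48%.

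A stricter minimum of 2 UMIs assigned 54, 164, 94 and 700 cells and raised the leading kappa segments. Igkv1-110 then held 18.5%, 17.1%, 17.0% and 15.0% of assigned cells, a mean of 16.9% against 8.47% at 1 UMI. Igkv1-117 held 9.26%, 16.5%, 20.2% and 16.3%. Iglv1 stayed at 7.41%, 6.10%, 9.57% and 9.14%. The other kappa segments among the 8 most used at this minimum were Igkv1-135, Igkv6-20, Igkv2-109, Igkv17-127, Igkv19-93 and Igkv12-44, with mean shares of 5.50% down to 2.82%.

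**Figure D1:**
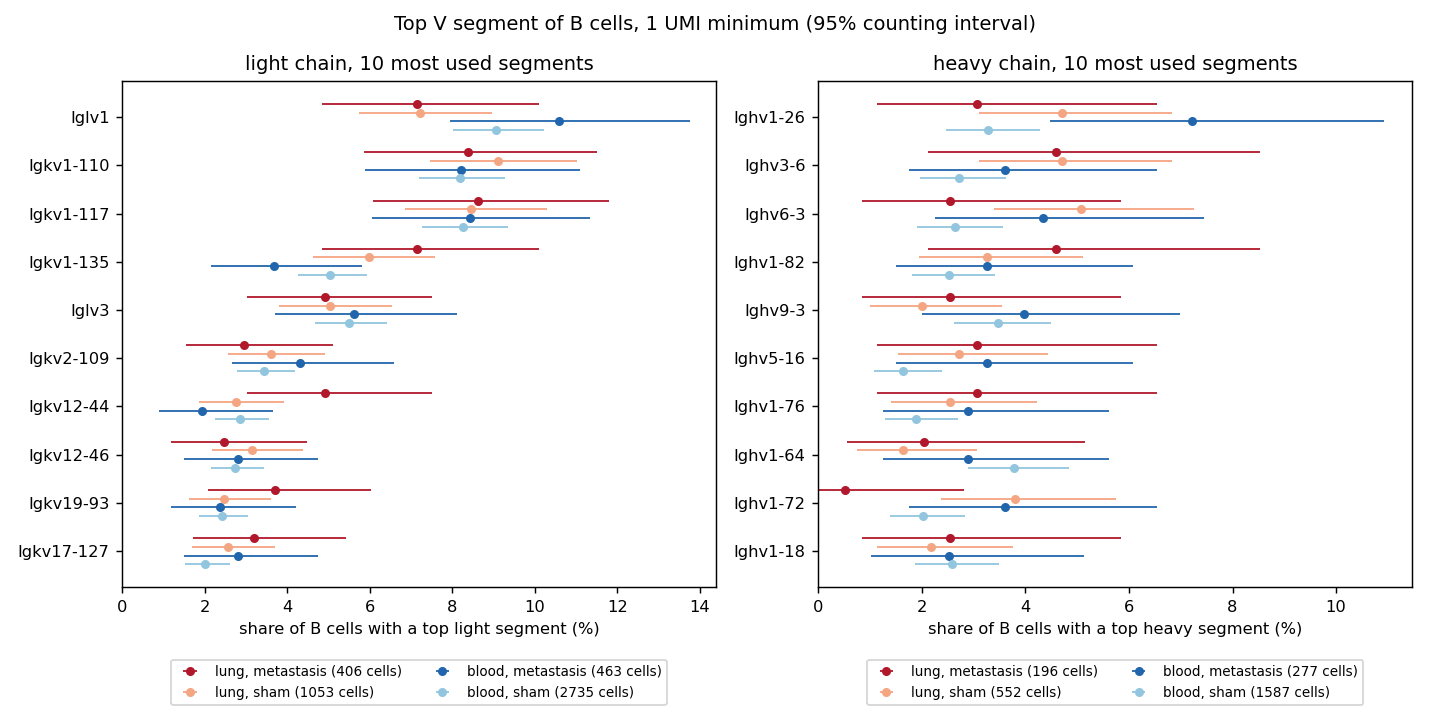
Share of B cells (x axis, percent of cells with an assigned segment of that chain) by top segment (y axis) for the 10 most used light (left) and heavy (right) segments at a minimum of 1 UMI. Points are the 4 libraries and lines are 95% counting intervals. Igkv1-110 and Igkv1-117 lie close together in all 4 libraries, and Ighv1-72 is at 0.510% in lung metastasis.

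Lambda V segments were on top in a minority of light assigned cells in each library. With a minimum of 1 UMI, Iglv segments were on top in 49 of 406 cells (12.1%, 9.06% to 15.6%) of lung metastasis, 138 of 1053 (13.1%, 11.1% to 15.3%) of lung sham, 76 of 463 (16.4%, 13.2% to 20.1%) of blood metastasis and 424 of 2735 (15.5%, 14.2% to 16.9%) of blood sham. With 2 UMIs the shares were 7.41%, 11.6%, 12.8% and 12.6%. Metastasis over sham gave a ratio of 0.921 (0.651 to 1.28) in lung and 1.06 (0.818 to 1.35) in blood at 1 UMI. Lung over blood gave 0.735 (0.503 to 1.07) in metastasis and 0.845 (0.693 to 1.03) in sham. All 4 intervals included 1. These shares count V segments and are not shares of lambda light chain cells. Among cells with a single light segment, the kappa constant segment Igkc led in 186 of 372 with Iglv1. It led in 8 of 31 with Iglv2 and 172 of 233 with Iglv3. Of cells with exactly 2 light UMIs, 48.0% had both from the same segment. Iglv2, the near copy of Iglv1, was rare, with 0 of 406 (which allows up to 0.739%), 9 of 1053, 1 of 463 and 26 of 2735 cells.

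Heavy chain use was spread over more segments. With 1 UMI, 196, 552, 277 and 1587 cells were assigned. The most used heavy segment on average was Ighv1-26, with 6 of 196 (3.06%), 26 of 552 (4.71%), 20 of 277 (7.22%) and 52 of 1587 (3.28%) cells, so blood metastasis stood highest. Ighv3-6 held 4.59%, 4.71%, 3.61% and 2.71%, and Ighv6-3 held 2.55%, 5.07%, 4.33% and 2.65%. Ighv1-82, which lies far from the J segments, held 4.59%, 3.26%, 3.25% and 2.52%. With 2 UMIs only 20, 47, 29 and 204 cells were assigned, and the 8 segments with the highest mean share were Ighv1-82, Ighv6-3, Ighv2-2, Ighv1-26, Ighv1-72, Ighv3-6, Ighv1-50 and Ighv5-4, each in 7 to 13 cells over the 4 libraries.

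The Ighv1 family, the largest in the mouse with 93 of the 185 Ighv members, was on top in 52.6% (45.3% to 59.7%), 52.5% (48.3% to 56.8%), 53.8% (47.7% to 59.8%) and 52.7% (50.3% to 55.2%) of cells at 1 UMI. At 2 UMIs, with few cells, they were 60%, 44.7%, 41.4% and 53.9%. Other families were smaller, with Ighv5 at 8.67%, 8.33%, 9.75% and 8.82% next. In the kappa locus the Igkv1 family, 13 of 160 members, held 25.6%, 25.3%, 22.3% and 23.0% of light assigned cells at 1 UMI and 40.7%, 40.9%, 41.5% and 38.6% at 2 UMIs. At 1 UMI Igkv6 held 10.3%, 11%, 9.07% and 9.76%.

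Light chain diversity differed little between libraries at 1 UMI. The effective number of segments, that is the number of equally used segments with the same chance that a pair of cells share one, was 26.1, 26.6, 26.5 and 27.6 for light chains and 57.7, 49.3, 49.3 and 58.3 for heavy chains at 1 UMI. The 10 most used light segments of a library covered 54.2%, 51.5%, 51.4% and 50.1% of its cells, and the 10 most used heavy segments 34.2%, 35.3%, 37.5% and 29.0%. Across 119 light segments, the shares of library pairs had Pearson correlations of 0.895 to 0.975, and across 115 heavy segments 0.666 to 0.829. Segments are not replicates, many cells rest on 1 UMI, and for both chains the lowest value was that of the metastasis libraries of lung and blood, which had the fewest cells. At 2 UMIs the effective numbers were lower and further apart for light chains, at 17.9, 13.6, 12.2 and 14.9. For heavy chains they were 190, 60.1, 203 and 48.5, an estimate that exceeded the number of assigned cells (20, 47, 29 and 204) in 3 libraries. The correlations were then 0.798 to 0.963 across 70 light segments but only -0.00595 to 0.227 across 71 heavy segments, so the likeness of heavy chain use between libraries was not seen at this minimum.

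For differences between libraries, a segment was measured with at least 20 assigned cells over both libraries. It was called when its shares differed at least 1.5-fold and the 95% interval of the ratio excluded 1. At the 2-UMI minimum 0 of 2 measured segments were called for metastasis over sham in lung (0%), 0 of 9 in blood (0%), and 0 of 2 for lung over blood in metastasis (0%). For lung over blood in sham, 1 of 10 was called (10%). At the 1-UMI minimum the counts were 1 of 30 (3.33%), 2 of 81 (2.47%), 2 of 13 (15.4%) and 10 of 86 (11.6%). Most V segments had too few cells to be measured, and their use was not comparable at this depth.

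In lung, Ighv1-72 was the segment called. It was on top in 1 of 196 cells of lung metastasis (0.510%, 0.0129% to 2.81%) and 21 of 552 of lung sham (3.80%, 2.37% to 5.76%), a ratio of 0.134 (0.00324 to 0.834). In blood it was on top in 10 of 277 metastasis and 32 of 1587 sham cells, a ratio of 1.79 (0.785 to 3.73) that was not called. The cells with either Ighv1-72 or its near copy Ighv1-64 were 5 of 196 and 30 of 552 in lung, a ratio of 0.469 (0.142 to 1.22) that was not called either. The Ighv1-72 difference in lung was not called after thinning to 2000 UMIs. Thinning left 63 and 297 heavy assigned cells in lung, so Ighv1-72 may have had too few cells to be measured. The Igkv5 family was also higher in lung metastasis, at 4.43% against 2.18% (ratio 2.03, 1.03 to 3.93), a family singled out after its values were seen.

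In blood, Ighv1-26 was on top in 20 of 277 metastasis cells (7.22%, 4.47% to 10.9%) and 52 of 1587 sham cells (3.28%, 2.46% to 4.28%), a ratio of 2.20 (1.25 to 3.76). The ratio was 2.43 (1.08 to 5.12) after thinning, from 11 of 146 and 25 of 807 cells. In lung the ratio was 0.650 (0.219 to 1.62), and the difference between tissues was not tested. Igkv8-27 was on top in 9 of 463 and 19 of 2735 cells, a ratio of 2.80 (1.12 to 6.49), and was not called after thinning. Thinning left 43 segments to measure in this comparison, against 81, so a lost call need not mean a smaller difference.

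Between tissues in metastasis, Igkv12-44 was higher in lung with 20 of 406 against 9 of 463 cells (ratio 2.53, 1.10 to 6.32). Igkv1-135 was higher with 29 of 406 against 17 of 463 (ratio 1.95, 1.03 to 3.77). Neither was called after thinning, which left 141 and 286 light assigned cells, so either may have had too few cells to be measured. Ighv1-26, with 6 of 196 and 20 of 277 cells, had a ratio of 0.424 (0.139 to 1.10) and was not called.

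Between tissues in sham, the library pair with most cells, 6 segments were higher and 4 lower in lung. The highest ratio was that of Ighv2-3, on top in 12 of 552 lung and 9 of 1587 blood cells (3.83, 1.48 to 10.3), followed by Igkv12-89 (23 of 1053 and 29 of 2735, 2.06, 1.14 to 3.69) and Ighv6-3 (28 of 552 and 42 of 1587, 1.92, 1.14 to 3.17). The lowest was that of Ighv1-54 (1 of 552 and 19 of 1587, 0.151, 0.00364 to 0.952), then Igkv14-126 (2 of 1053 and 25 of 2735, 0.208, 0.0239 to 0.833) and Ighv5-17 (3 of 552 and 34 of 1587, 0.254, 0.0499 to 0.807). Ighv1-72 was higher (1.89, 1.03 to 3.37) while its near copy Ighv1-64 was lower (0.431, 0.188 to 0.874). Together they were on top in 30 of 552 lung cells (5.43%) and 92 of 1587 blood cells (5.80%), a ratio of 0.937 (0.599 to 1.43). After thinning, 4 of 51 measured segments were called in this comparison: Ighv1-64, Ighv1-72, Igkv6-23 and Igkv10-96. At the 2-UMI minimum the call was Igkv6-20, on top in 11 of 164 lung cells (6.71%, 3.40% to 11.7%) and 15 of 700 blood cells (2.14%, 1.2% to 3.51%), a ratio of 3.13 (1.30 to 7.29). At 1 UMI its ratio was 1.41 (0.891 to 2.18) and it was not called.

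**Figure D2:**
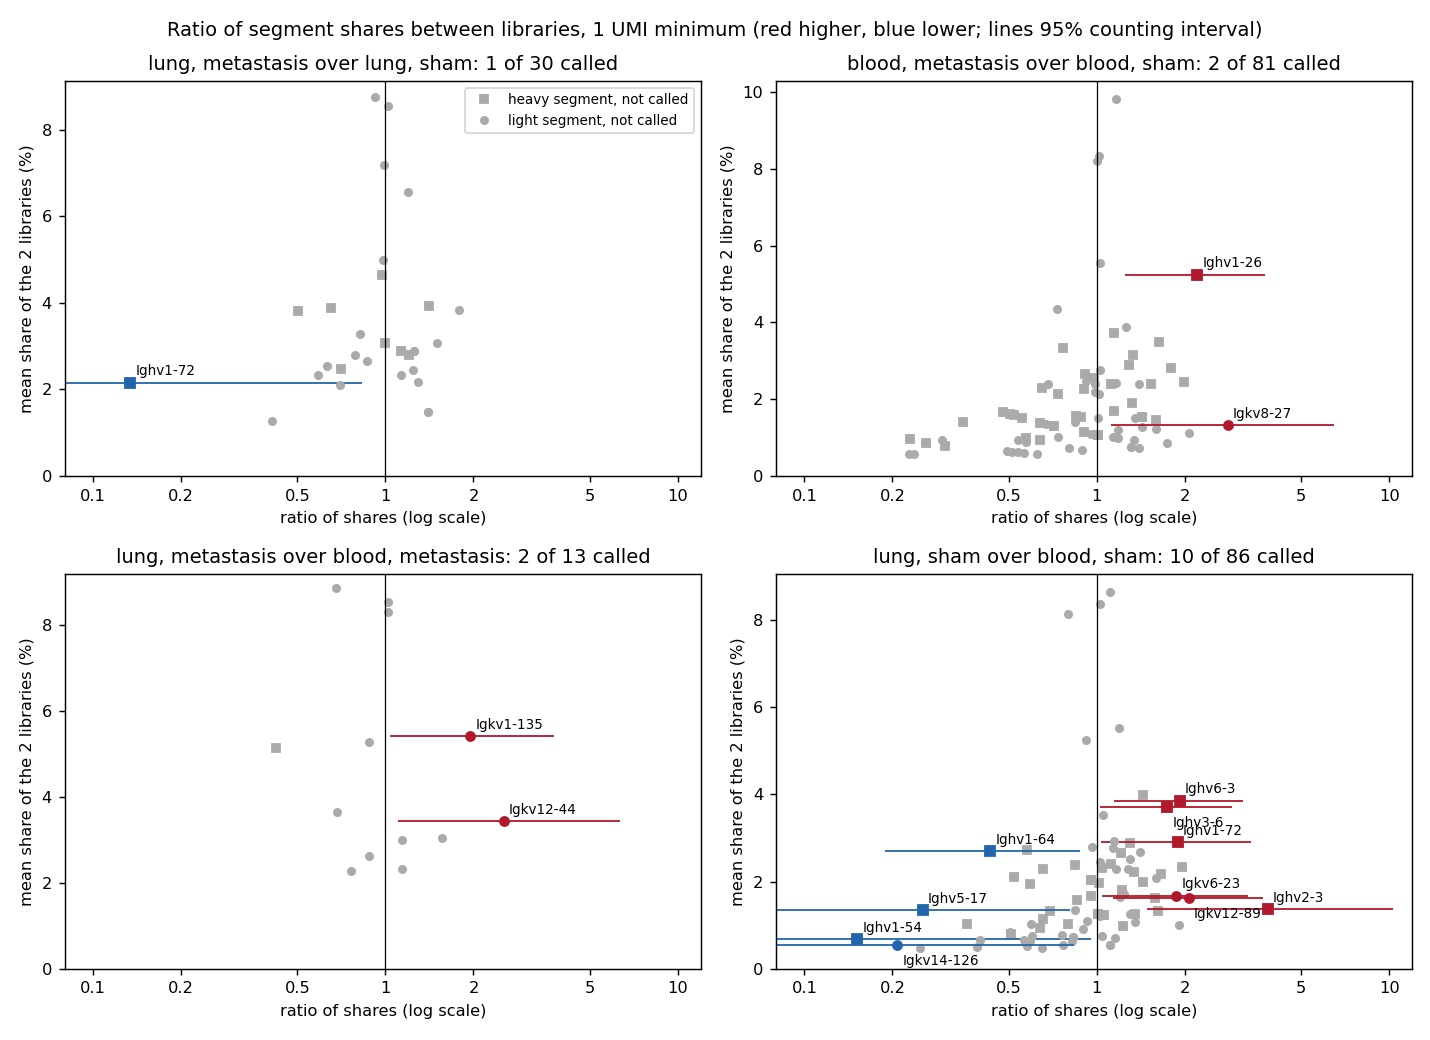
Ratio of the shares of assigned cells by top segment (x axis, log scale) against the mean share of both libraries (y axis, percent) in the 4 comparisons at a minimum of 1 UMI. Each point is a measured segment (squares heavy, circles light), and called segments are red (higher in the first library) or blue (lower) with their 95% counting interval, which is clipped where it runs beyond the axis. The most used light segments sit close to a ratio of 1, and most called segments have shares below 6%.

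Use along the loci had a like outline in the 4 libraries at 1 UMI, and at 2 UMIs for Igkv. For Ighv at 2 UMIs the shares varied more but rested on few cells, and the intervals of their ratios between libraries all included 1. The Igkv segments were ordered by distance from the first Igkj segment and divided into 3 equal groups. The nearest 54 segments held 32.8%, 30.6%, 32.6% and 31.7% of light assigned cells. The middle 53 held 10.8%, 11%, 9.5% and 9.58%, and the farthest 53 held 44.3%, 45.3%, 41.5% and 43.2%. These are shares at 1 UMI, and at 2 UMIs the middle group held 9.26%, 3.05%, 5.32% and 4.71% and the farthest 51.9%, 57.3%, 58.5% and 56.1%. The farthest group includes Igkv1-110, Igkv1-117 and Igkv1-135. In the Ighv locus at 1 UMI the 62 nearest segments held 29.1%, 34.2%, 32.1% and 33.1%, the middle 62 held 28.6%, 29.3%, 32.5% and 29.2%, and the 61 farthest, mostly of the Ighv1 family, held 42.3%, 36.4%, 35.4% and 37.6%. At 2 UMIs, with 20, 47, 29 and 204 cells, the nearest Ighv group held 25%, 40.4%, 41.4% and 37.3%. The middle group then held 30%, 29.8%, 24.1% and 25.5% and the farthest 45%, 29.8%, 34.5% and 37.3%. Kappa segments lie in both orientations, so that some join by deletion and others by inversion. The 75 plus-strand members held 49.8%, 48.6%, 45.4% and 48.1% of cells and the 85 minus-strand members 38.2%, 38.3%, 38.2% and 36.4%, and at 2 UMIs the minus-strand members held 38.9%, 26.8%, 24.5% and 26.9%. Genes annotated as pseudogenes were on top in 0.906% to 2.17% of heavy and 0.739% to 1.76% of light assigned cells.

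**Figure D3:**
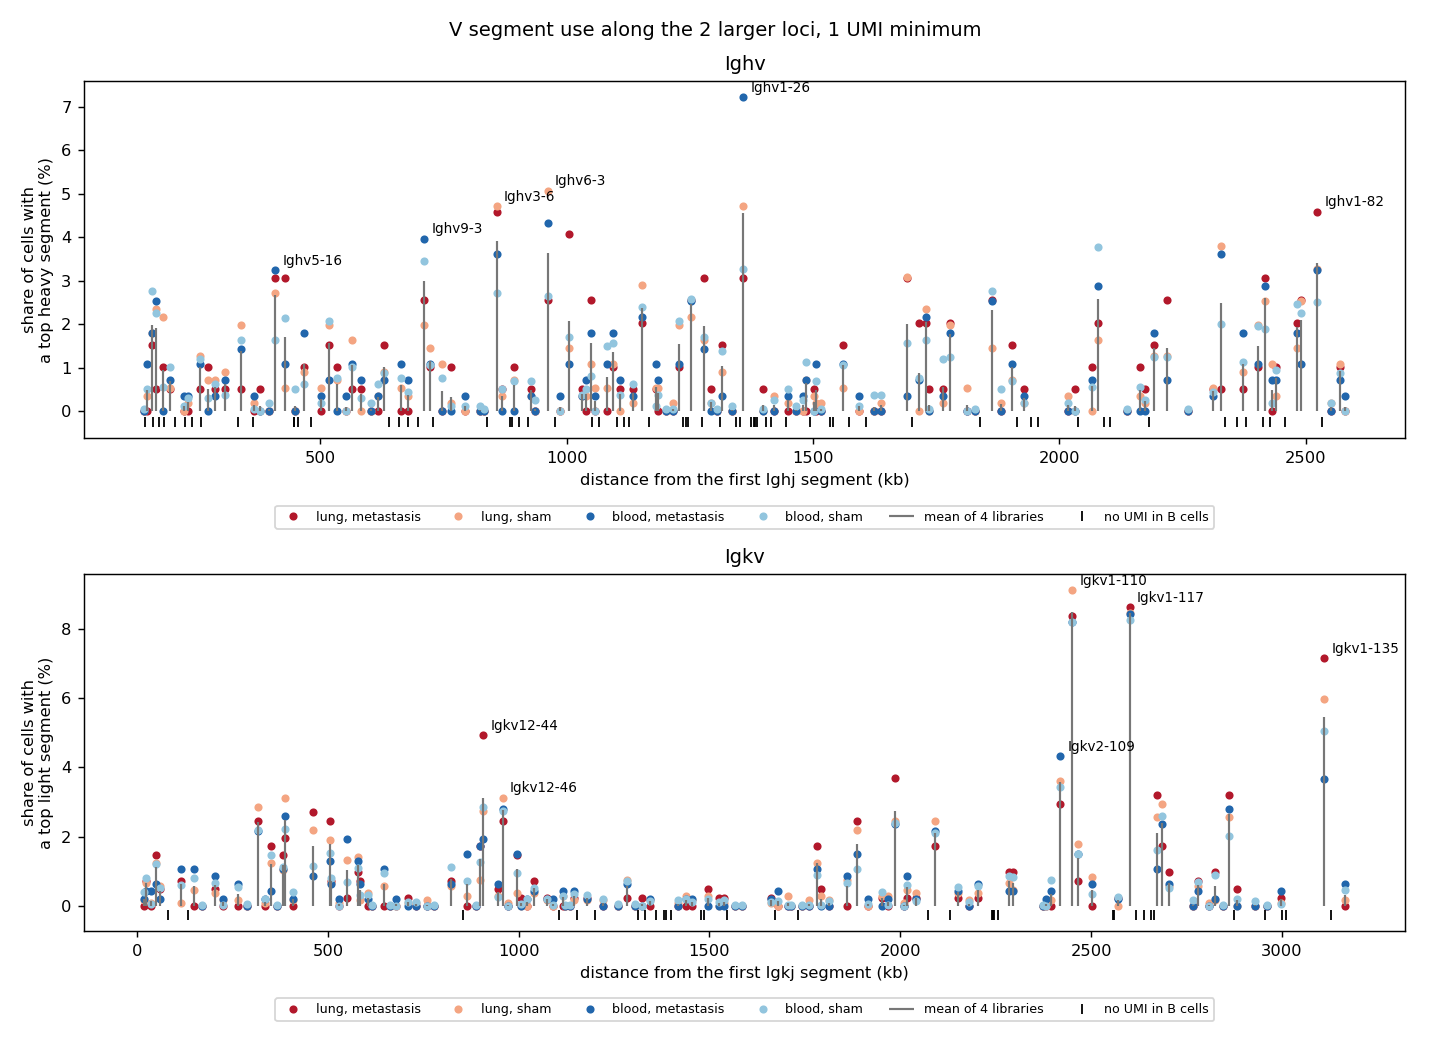
Share of assigned cells (y axis, percent) by top segment against the distance of the segment from the first J segment of its locus (x axis, kb) for Ighv (top) and Igkv (bottom) at a minimum of 1 UMI. Points are the 4 libraries, bars their mean, and ticks below 0 mark members without a UMI in B cells. The middle group of Igkv segments holds 9.5% to 11% of cells, and the tallest bars, Igkv1-110 and Igkv1-117, stand in the far part of the locus.

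Heavy chain UMIs were mostly of 1 segment per cell. Among cells with at least 2 heavy V UMIs, 0 of 20, 7 of 54, 6 of 33 and 85 of 265 (32.1%, 26.5% to 38.1%) had more than 1 heavy segment. In blood sham the cells with several heavy segments were deeper, at a median of 7187 UMIs against 3946 for those with 1. In cells with exactly 2 heavy UMIs, both came from the same segment in 100%, 86.0%, 85.2% and 72.8%. Light chain UMIs mixed far more. More than 1 light segment was found in 52 of 90 (57.8%), 160 of 292 (54.8%), 82 of 154 (53.2%) and 668 of 1154 (57.9%) cells with at least 2 light UMIs. Of 1129 cells with exactly 2 light UMIs, 542 (48.0%, 45.1% to 51.0%) had both from the same segment, and of the 587 others 238 (40.5%, 36.5% to 44.6%) paired an Igkv with an Iglv segment. The most frequent mixed pair was Igkv1-110 with Iglv1, in 28 cells. Igkv17-121 with Igkv9-120, which lie 13.2 kb apart, occurred in 19 cells, 11.2% of the cells with an Igkv17-121 UMI and 15.0% of those with an Igkv9-120 UMI.

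Light V segments could be set beside the light constant segments of the same cells, which the choice of top segment did not use. Igkc encodes the kappa constant region and Iglc1, Iglc2 and Iglc3 encode the lambda ones. In the annotation the lambda locus runs Iglv2, Iglv3, Iglc2, Iglc4, Iglv1, Iglc3, Iglc1 in the direction of transcription. Among cells with UMIs of a single light segment and a leading light constant, Igkc led in 3527 of 3721 cells with an Igkv segment (94.8%, 94.0% to 95.5%). With Iglv1, Igkc led in 186 of 372 (50%, 44.8% to 55.2%) and Iglc1 in 144 (38.7%, 33.7% to 43.9%). With Iglv2, Iglc2 led in 18 of 31 (58.1%, 39.1% to 75.4%). With Iglv3, Igkc led in 172 of 233 (73.8%, 67.7% to 79.3%) and Iglc2 in 37 (15.9%, 11.4% to 21.2%). Cells with no light V UMI had Igkc on top in 9544 of 10688 (89.3%). The lambda segments thus went with lambda constants more often than kappa segments did, and Iglv1 went with Iglc1 and Iglv2 with Iglc2, yet many Iglv cells were led by Igkc. By library, Iglv1 cells were led by Iglc1 in 3 of 28, 27 of 74, 23 of 45 and 91 of 225 cells and by Iglc2 in 10 of 28, 4 of 74, 3 of 45 and 12 of 225. Lung metastasis alone had more cells of the second kind than of the first, a contrast noticed after the values were seen.

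The reverse view gave the same order. In cells with at least 5 light constant UMIs of which 80% or more were kappa, Iglv made up 8.41%, 9.31%, 8.64% and 8.70% of light V UMIs. In cells with 20% to 80% kappa it made up 12.2%, 13.7%, 13.9% and 14.8%. In cells with 80% or more lambda it made up 55.3% (38.3% to 71.4%), 55.2% (46.1% to 64.1%), 68.9% (55.7% to 80.1%) and 68.6% (63.0% to 73.8%). Shares of cells in the rest of this paragraph are of B cells with at least 5 light constant UMIs. Lambda constants held over 50% of the light constant UMIs in 13.1%, 11.4%, 17.7% and 14.8% of them. After thinning to 2000 UMIs these shares were 9.93%, 9.82%, 15.0% and 15.4%, so the higher share in metastasis than in sham blood was not seen at equal depth. The tissues differed in how cleanly the constants separated: 59.3% and 62.0% of lung B cells had 80% or more kappa, against 35.9% and 31.7% of blood B cells, and the shares after thinning were 59.9%, 62.5%, 38.5% and 34.6%.

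**Figure D4:**
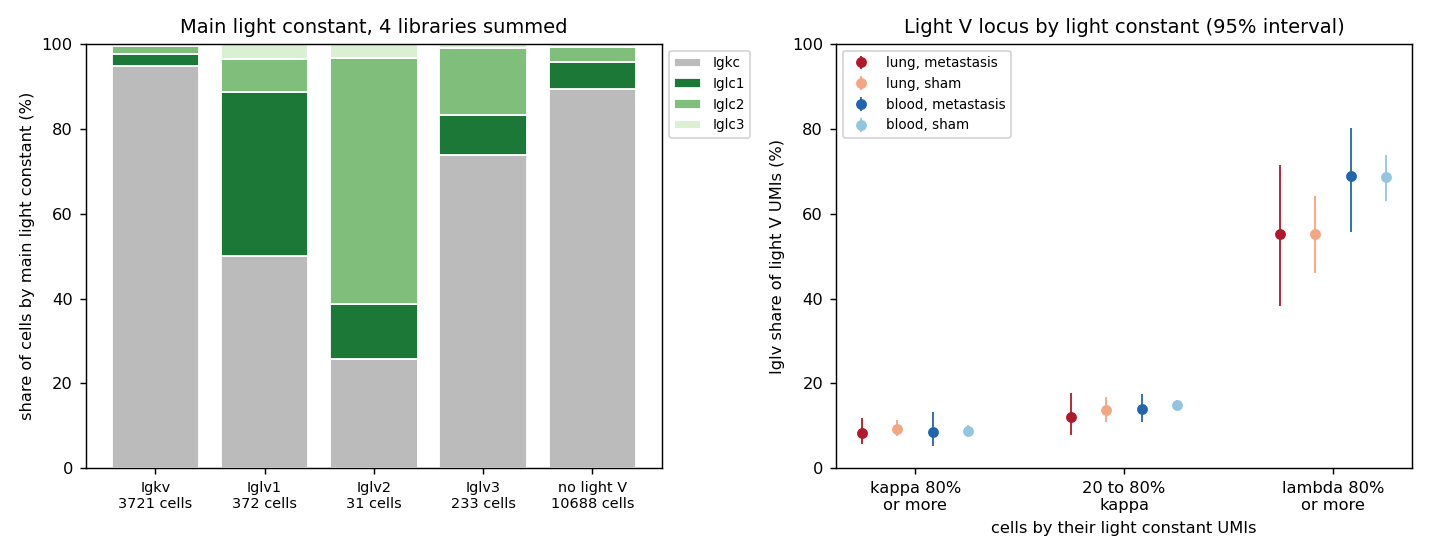
Left, share of cells (y axis, percent) by leading light constant segment for cells with UMIs of a single light V segment (Igkv, Iglv1, Iglv2 or Iglv3) and, in the last bar, for cells with no light V UMI, over the 4 libraries summed. Right, Iglv share of light V UMIs (y axis, percent, with 95% counting intervals) by the kappa share of the cell's light constant UMIs, for the 4 libraries. Iglv UMIs are most frequent in cells with 80% or more lambda constant UMIs, at 55.2% to 68.9%.

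Pairs of a heavy and a light segment were seen in 860 cells, which held 680 different pairs. By library the counts were 46 pairs in 46 cells, 135 in 144, 79 in 81 and 498 in 589. The most frequent pair was Ighv4-1 with Iglv1, in 0, 0, 1 and 6 cells, followed by Ighv1-26 with Igkv1-110 in 0, 1, 3 and 2 cells. A further 5 pairs had 4 cells each: Ighv1-15 with Iglv1, Ighv11-2 with Igkv14-126, Ighv5-6 with Igkv1-110, Ighv8-8 with Igkv1-117, and Ighv8-8 with Iglv1. No pair exceeded 7 of the 860 cells. The joint itself was not read, so cells that share a pair need not share an ancestor.

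B-1 cells are an innate-like B cell group that fills the body cavities and makes natural antibodies, and phosphatidylcholine-binding B-1 receptors often use Ighv11-2 with Igkv14-126 or Ighv12-3 with Igkv4-91. Ighv11-2 was on top in 0 of 196 (up to 1.53%), 2 of 552, 1 of 277 and 10 of 1587 cells. All 4 cells with the Ighv11-2 and Igkv14-126 pair were in blood sham. Igkv14-126 was on top in 4, 2, 1 and 25 cells, Igkv4-91 in 1, 3, 0 and 11, and Ighv12-3 in 0, 0, 0 and 4. Most of these cells were thus in blood sham, which also had most assigned cells.

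Ighv11-2 cells stood apart in genes that the V rule did not use. Thinned to 2000 UMIs, 11 of 12 Ighv11-2 cells had an S100a6 UMI (91.7%, 61.5% to 99.8%) against 188 of 2347 cells with another heavy segment (8.01%, 6.94% to 9.18%), and the summed level was 5917 against 216.2 CPM. S100a6 encodes a calcium-binding protein and was in the B-1 list. Anxa2, encoding annexin A2, had a UMI in 6 of 12 against 48 of 2347 cells (50% and 2.05%), and Ahnak in 11 of 12 against 746 of 2347 (91.7% and 31.8%). Fcer2a, which encodes the follicular B cell marker CD23, had a UMI in 0 of 12 (up to 25.0%) against 677 of 2347 (28.8%, 27.0% to 30.7%), and Ighd, the IgD constant segment, in 2 of 12 against 1345 of 2347 (16.7% and 57.3%). Within blood sham alone the S100a6 counts were 10 of 10 against 132 of 1561 cells and the Fcer2a counts 0 of 10 against 454 of 1561. The 10 blood sham cells had 20 to 294 S100a6 UMIs each (median 114) and the blood metastasis cell had 17, whereas both lung sham cells had 0 S100a6 and 0 Vim UMIs. Of the 12 thinned Ighv11-2 cells, 5 held a UMI of the monocyte or macrophage list before thinning (41.7%, 15.2% to 72.3%), against 219 of 2347 others (9.33%). In the 7 without one, S100a6 had a UMI in 6 cells against 155 of 2128 (85.7% and 7.28%), Anxa2 in 3 against 28 of 2128 and Fcer2a in 0 against 613 of 2128.

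The Ighv11-2 cells were deep, at a median of 17198 UMIs before thinning against 3418 for cells with another heavy segment. Cd5, Spn, Bhlhe41 and Cd9 had no UMI in the 12 thinned cells, which allows up to 25.0%. Without thinning, Cd9 had a UMI in 7 of 13 against 143 of 2599 cells (53.8% and 5.50%), Spn in 4 of 13 against 55 of 2599 and Bhlhe41 in 3 of 13 against 121 of 2599. Among cells over 10000 UMIs, S100a6 had a UMI in 9 of 9 Ighv11-2 cells and 77 of 169 with another heavy segment (45.6%, 37.9% to 53.4%), Anxa2 in 9 of 9 and 49 of 169, Cd9 in 6 of 9 and 35 of 169, Spn in 3 of 9 and 16 of 169, Bhlhe41 in 2 of 9 and 39 of 169, and Cd5 in 2 of 9 and 0 of 169. Whether deep cells hold more than 1 cell was not tested beyond the removal of called doublets. Igkv14-126 cells showed a smaller contrast. Thinned, 15 of 31 had an S100a6 UMI (48.4%, 30.2% to 66.9%) against 336 of 4042 with another light segment (8.31%, 7.48% to 9.21%), and 7 of 31 had an Anxa2 UMI (22.6%, 9.59% to 41.1%) against 91 of 4042 (2.25%).

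**Figure D5:**
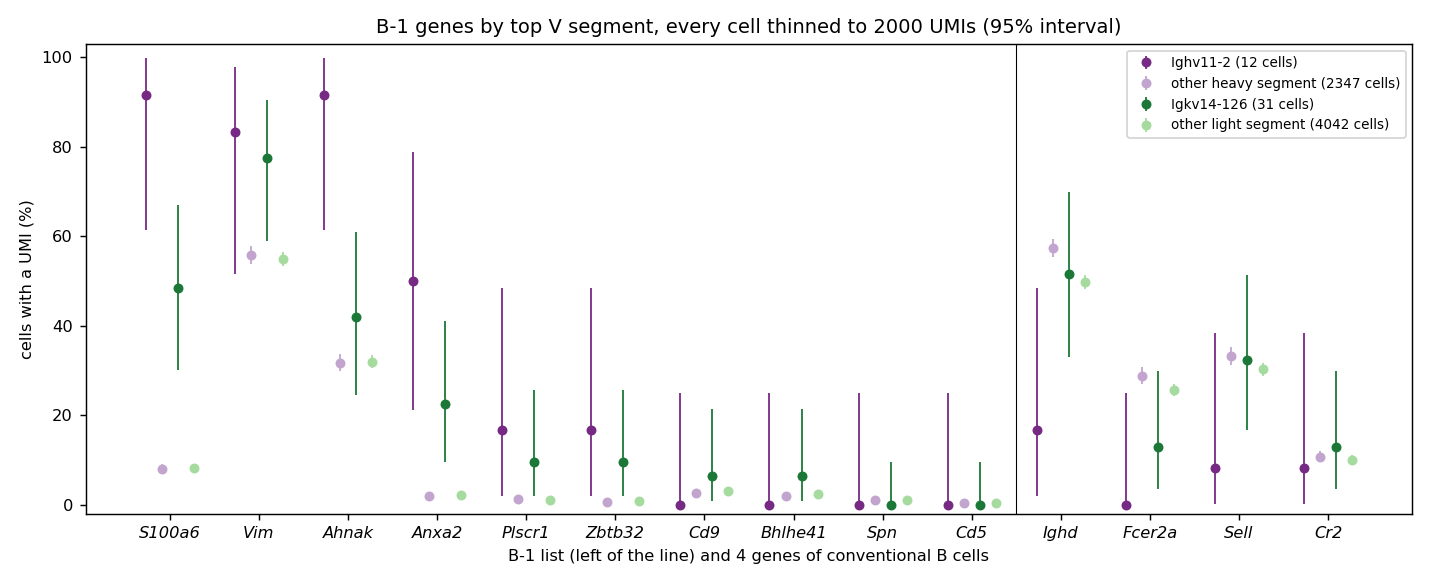
Share of cells with a UMI (y axis, percent) for the 10 genes of the B-1 list and 4 genes of conventional B cells (x axis), each cell thinned to 2000 UMIs. Colours give the top V segment and lines 95% counting intervals. S100a6, Ahnak and Anxa2 are seen more often in Ighv11-2 cells than in cells with another heavy segment, and Fcer2a is at 0 of 12.

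A few cells held many V UMIs. Plasma cells secrete antibody and carry far more antibody RNA than resting B cells. Cells with 3 or more summed UMIs of Jchain, Sdc1, Prdm1 and Tnfrsf17 numbered 2, 7, 0 and 4. Most of these plasma-like cells were not rich in V UMIs. Apart from the pair of lung sham cells described next, none held more than 5, and several had no Jchain UMI. A lung sham cell of this kind had 59 UMIs of Igkv19-93, 32 of Ighv2-3 and 19 of Iglv1 beside 669 UMIs of Jchain, the joining chain of secreted IgM and IgA, 2330 of Ighm and 6852 of Igkc. It alone gave 4.82% of the V UMIs of lung sham B cells. Another had 8 UMIs of Igkv5-48, 4 of Iglv1 and 2 of Ighv14-1 with 404 of Igha and 174 of Jchain. In blood sham, a plasma-like cell with 8 Jchain UMIs and another with 3 had Ighv11-2 as their only heavy segment. They are among the Ighv11-2 cells above, whose contrast was not tested without them. Without cells of this kind, the Ighv2-3 ratio of sham lung over blood was 3.52 (1.33 to 9.61), from 11 of 550 and 9 of 1584 cells.

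Summed over B cells, V segments made up 164.9, 168.3, 195.1 and 191.3 CPM, with Ighv at 46.1, 47.2, 58.8 and 54.0, Igkv at 103.6, 103.8, 113.3 and 115 and Iglv at 15.2, 17.3, 23.0 and 22.3 CPM. The metastasis over sham difference of all V UMIs was -0.03 on the log2 scale (-0.15 to 0.09) in lung and 0.03 (-0.07 to 0.12) in blood. Lung over blood was -0.24 (-0.38 to -0.11) in metastasis and -0.18 (-0.25 to -0.12) in sham. The median of all genes was itself -0.03, -0.12, -0.07 and -0.18 in the 4 comparisons. Scaled to it, the V differences were 0.00 (-0.12 to 0.11), 0.15 (0.06 to 0.24), -0.17 (-0.31 to -0.04) and -0.01 (-0.08 to 0.06). Of the 348 members, Igkv1-117, Igkv1-110 and Iglv1 passed the minimum of 100 UMIs and a mean of 10 CPM in each comparison, and 0 of these 3 were called. Of all genes measured, 1.55% were called for metastasis over sham in lung (0.994% higher, 0.552% lower) and 3.22% in blood (0.814% higher, 2.4% lower). For lung over blood the shares were 10.8% in metastasis (5.58% higher, 5.23% lower) and 12% in sham (3.97% higher, 8.04% lower). Iglv as a locus was called lower in lung than in blood in metastasis (-0.59, -1.03 to -0.17), but not when scaled to the median of gene ratios (-0.52).

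In the list of 13 constant segment genes, which includes Jchain, levels were led by Igkc (7603, 8334, 8199 and 8416 CPM), Ighm (2487, 2654, 2719 and 3063), Iglc2 (1212, 1147, 1907 and 1928), Iglc1 (1070, 964.6, 1651 and 1390), Iglc3 (549.8, 497, 947.2 and 956.2) and Ighd (434.7, 404, 463.6 and 439.4). For metastasis over sham, 0 were called higher and 2 of 8 lower in lung, with a list median of -0.01 (all genes -0.03). These were Jchain (3 against 865 UMIs, log2 -6.66, -8.94 to -5.11) and Igha (13 against 502, -3.76, -4.68 to -2.97). Jchain rested mainly on the pair of lung sham plasma-like cells above (669 and 174 UMIs). Igha rested mainly on 1 of them (404 UMIs), as the other had 0. In blood 0 of 6 were called. Between tissues Iglc3 was lower in lung, by -0.78 on the log2 scale in metastasis and -0.94 in sham, and remained called when scaled to the median of gene ratios (-0.71 and -0.77). Iglc2 (-0.65 and -0.75) and, in metastasis, Iglc1 (-0.63) were called lower by total UMIs, and when so scaled (-0.58 and -0.57, and -0.55) fell just short of a 1.5-fold difference, with intervals below 0. Jchain (6.13) and Igha (3.54) were higher in sham lung than sham blood, on the same plasma-like cells.

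In the B-1 list of 10 genes, the 5 members called in any comparison had their highest level in sham blood. For metastasis over sham in blood, 0 were higher and 4 of 6 measured were lower, with a median of -0.72 against -0.12 for all genes. Of all genes, 2.4% were called lower there. S100a6 was at 136.7 against 551.6 CPM (log2 -2.01, -2.12 to -1.91), Anxa2 at 13.2 against 27.9 (-1.08, -1.45 to -0.73), Cd9 at 16.9 against 28.9 (-0.78) and Vim at 505.7 against 804.8 (-0.67). Scaled to the median of gene ratios, Vim (-0.55) was no longer called. For sham lung over blood 5 of 6 were lower, beside 8.04% of all genes, with a median of -0.97 against -0.18: S100a6 at -2.52, Cd9 at -1.48, Anxa2 at -1.17, Ahnak at -0.76 and Vim at -0.75, of which Vim (-0.57) was not called after that scaling. In lung 0 of 5 were called for metastasis over sham, with S100a6 at 137.1 and 95.9 CPM, and 0 of 6 for lung over blood in metastasis. Blood sham had the highest S100a6 level, and its B cells also had the highest level of the 5 monocyte or macrophage markers (250.3 CPM, against 75.5 in blood metastasis). Lyz2, the lysozyme gene of that list, was at 41.7, 123.1, 48.1 and 211.7 CPM, and Csf1r at 3.96, 6.72, 2.20 and 7.73 CPM. A UMI of the 5 markers was found in 4.62%, 6.52%, 6.73% and 9.01% of B cells. Without these cells, a setting chosen after the data were seen, S100a6 was at 107.4, 62.7, 128.5 and 487.9 CPM and remained lower in metastasis than in sham blood (-1.92, -2.04 to -1.81), as did Anxa2 (-0.96) and Vim (-0.64), while Cd9 (-0.27) was no longer called. S100a6 was then called higher in metastasis than in sham lung (0.78, 0.61 to 0.94, against 0.52 with all B cells). In bulk sums, fewer cells of a type and less RNA per cell cannot be told apart.

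Among the 16 genes of B cell receptor signalling, 0 were called for metastasis over sham in lung. In blood 1 was lower, Plcg2, the phospholipase downstream of the receptor (-0.65, or -0.52 and not called when scaled to the median of gene ratios). Pik3ap1, the adaptor that links the receptor to PI3 kinase, was higher in lung than in blood in metastasis (259.7 against 140.5 CPM, 0.89) and in sham (284.1 against 151.1 CPM, 0.91), and Ptpn6, the phosphatase SHP-1, was lower in sham lung (-0.64, and -0.46 when so scaled). The list medians were 0.05, -0.11, -0.03 and -0.19 in the 4 comparisons. Of the 10 transcription factors that act on V promoters or B cell identity, 1 was called in all, Ikzf3 lower in sham lung than sham blood (-0.61, and -0.44 when so scaled). Of all genes, 3.22% were called for metastasis over sham in blood. For lung over blood 10.8% were called in metastasis and 12% in sham.

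The marginal zone list had 1 of 4 measured genes called, Cd1d1 in metastasis lung over blood (-0.66). The follicular list had Cxcr5 (0.67) called higher in metastasis lung and Ccr7 (0.72) in sham lung than in the blood of the same arm. Both were also higher in lung in the other arm, by less than 1.5-fold (Cxcr5 0.47 in sham, Ccr7 0.46 in metastasis). Scaled to the median of gene ratios, Cxcr5 in sham (0.65) exceeded 1.5-fold and Ccr7 in metastasis (0.53) did not. The transitional list had Tnfrsf13b lower in sham lung (-0.61, and -0.44 when scaled to the median of gene ratios). None of these 3 lists had a call for metastasis over sham. The calls between tissues stand beside 10.8% of all genes called in metastasis and 12% in sham. The 6 genes of V(D)J recombination and the surrogate light chain were not measurable, with 35, 56, 16 and 81 UMIs of Rag1, 10, 7, 0 and 0 of Dntt, and 6, 0, 0 and 0 of Igll1.

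Scaling affected the balance of these calls. By total UMIs 64.3%, 25.3%, 51.6% and 33.1% of all called genes were higher in the first library of the comparison, against 72.1%, 51.6%, 66.5% and 64.8% when scaled to the median of gene ratios and 72.8%, 58.6%, 69.6% and 70.8% when immunoglobulin and haemoglobin UMIs were left out of the totals, in the order lung metastasis over sham, blood metastasis over sham, lung over blood in metastasis and lung over blood in sham.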

How the data were processed

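Each library was deposited as a matrix of raw UMI counts per gene and barcode. The submitters' processing notes name Cell Ranger 7.0.0, Seurat 4.3.0.1, R 4.3.1 and the GRCm38.p6 build. The labels do not state which end of transcripts was read, which bears on how often a V segment is seen. Barcodes under 200 genes or over 10% mitochondrial UMIs were left out. Cells with a Scrublet score over 0.3 (scanpy 1.11.5, expected rate 0.1) were removed as doublets, 394, 689, 114 and 755 in the order of the report. Shares have exact Clopper-Pearson 95% intervals, a count of 0 a limit of 3 counts, and ratios exact conditional binomial intervals of a pair of Poisson counts. CPM is UMIs per 1000000 UMIs of the summed B cells. The calling scripts were tested on simulated data. The 2-UMI minimum for a top segment was the main setting, and the 1-UMI minimum is given beside it. Symbols were matched to GENCODE M21, and 2 symbols had 2 gene identifiers each.

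Named were the 8 Ighv and 8 Igkv segments with the highest mean share, all Iglv genes, up to 3 called segments in each direction per comparison, Ighv11-2, Ighv12-3, Igkv14-126, Igkv4-91 and Ighv1-72, the 5 most frequent pairs with ties, up to 2 called genes of a list in each direction, and the constants by level. Where 5 or fewer members of a list were called all were named, and these, Ighv1-64, other called segments and the co-occurring pairs were chosen after their values were seen. The members and lists were chosen with earlier results of these data known. The list of genes of mutation and class switching is not reported here. Alternatives changed the cell, doublet, B cell and segment rules, depth and scaling.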

Additional observations from a re-analysis of the deposited data

How the results depend on the processing

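No paired analysis was possible because each group had 1 library. The number of called segments depended on the UMI minimum. Against 0, 0, 0 and 1 at 2 UMIs (lung metastasis over sham, blood metastasis over sham, lung over blood in metastasis, lung over blood in sham), 1 UMI gave 1, 2, 2 and 10. The sham tissue call was lost, with 0 called, at 5 UMIs, with 50 cells per segment, with 80% purity and after thinning. These settings left 0, 3, 5 and 3 segments to measure. At 5 UMIs nothing could be called, and Igkv6-20, with 30 assigned cells over the 4 libraries, could not reach 50. Those 2 settings therefore could not check the call. Thinning left 63 lung and 239 blood cells with a light segment at 2 UMIs, against 164 and 700. After thinning and at 80% purity Igkv6-20 may thus also have had too few cells to be measured. The loss of its call there need not mean a smaller difference. In settings chosen after the data were seen, all at 1 UMI, the counts were 1, 2, 1 and 10 in cells with 1 segment of the chain, 1, 2, 2 and 11 without plasma-like cells or without shared barcodes, and 1 in blood and 4 between sham tissues after thinning, which called 0 in the other comparisons. Thinning left 43 measured segments in blood and 51 between sham tissues, against 81 and 86, so fewer could be called.

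The lambda share by top V segment in blood sham was 12.6% at 2 UMIs, 15.5% at 1 UMI, 8.33% at 5 UMIs and 15.5% thinned, and 15.4% to 15.6% in the 1-UMI settings just named (15.39, 15.43, 15.48 and 15.55). At 5 UMIs it was 0 in lung sham and blood metastasis, and the Ighv1 family share was 100% in lung metastasis, from a single cell, and 0 in lung sham. Thinning at 2 UMIs moved the Ighv1 share of lung sham from 44.7% to 29.4%.

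With 20 UMIs and no CPM minimum, 2 of 37, 7 of 99, 3 of 21 and 13 of 102 V members were called (5.41%, 7.07%, 14.3% and 12.7%), against 466, 935, 1319 and 2399 of all genes (4.04%, 7.23%, 12.5% and 18.0%). Without plasma-like cells 1 of 3 measured V members was called between sham tissues, against 889 of 7397 genes. Without B cells holding a monocyte marker UMI, the B-1 list had 1 of 3, 3 of 6, 2 of 5 and 5 of 6 measured genes called. The first was higher and the others lower. With all B cells the counts were 0 of 5, 4 of 6, 0 of 6 and 5 of 6. Of all genes, 0.485%, 1.92%, 4.96% and 7.76% were called lower without the marker cells. Keeping doublets raised all called genes in lung from 112 to 205. Stricter cell filters, 6 B cell gene UMIs, and removal of cells over 5% haemoglobin kept the counts of called segments within 1.5 times and the lambda and Ighv1 shares within their intervals. The 2-fold threshold and a top segment over all members, run for the counts of called segments alone, kept those. Both other scalings kept the total counts of called genes within 1.5 times but not their split: scaled to the median of gene ratios, 60 higher and 177 lower in blood became 97 and 91, and 294 and 595 between sham tissues became 484 and 263. A V UMI was found in 29.7%, 35.2%, 41.8% and 51.4% of B cells, and each group had 1 library.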

Other observations

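V UMIs outside the B cell rule were few. Cells with 1 or 2 UMIs of the B cell genes and no Cd3e, which missed the rule by depth or by type, had a light V UMI in 22 of 328 (6.71%), 28 of 507 (5.52%), 6 of 152 (3.95%) and 11 of 249 (4.42%) cells. Cells with 3 or more B cell gene UMIs together with Cd3e had one in 0 of 6, 6 of 30, 1 of 3 and 37 of 90 cells, with a median of 11141 UMIs per cell in blood sham. Neutrophil-like cells (20 or more S100a8 and S100a9 UMIs, no B cell gene UMI) had a heavy V UMI in 2 of 1254, 0 of 57, 3 of 2369 and 1 of 437 cells. B cells by the rule held 86.1%, 87.2%, 94.1% and 88.6% of all V UMIs in the 4 matrices.

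The count of Ighg3, the IgG3 constant segment, was 4, 8, 2 and 109 UMIs in the B cells of the 4 libraries, and that of Ighg1 was 0, 6, 6 and 2. The libraries differed in total B cell UMIs. In CPM, Ighg3 was at 0.83, 0.58, 0.37 and 2.99 and Ighg1 at 0, 0.44, 1.10 and 0.05, all low levels.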
